A study of Mus musculus with 13 samples.

Results

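HCN channels carry the hyperpolarization-activated current that sets the resting potential and rhythmic firing of neurons, and the genes Hcn2, Hcn3, Hcn4 and Pex5l were followed here in the mouse hippocampus after seizures. Their rows were taken by gene symbol, 4 of the 45777 genes in the table of read counts, and all 4 passed the filter on low counts in every comparison. Hippocampi came from mice that carried Nestin-Cre, which acts in neural progenitors and the cells they give rise to. LIN28A WT mice were Nestin-Cre::Lin28a+/+ and LIN28A-cKO mice were Nestin-Cre::Lin28aloxP/loxP, of both sexes and treated at 6 weeks of age. Sham mice received saline. SE mice developed status epilepticus (SE) after pilocarpine (males 260 mg/kg, females 280 mg/kg), given after scopolamine methyl nitrate and terbutaline. Tissue was taken on day 3 from 7 sham mice (3 sham-WT, 4 sham-cKO) and 6 SE mice (SE-WT and SE-cKO, 3 each). Each library is labelled as a biological replicate. All groups carry Cre, so an effect of Cre alone cannot be told apart from the background shared by both genotypes.

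HCN channels are tetramers that open on hyperpolarization and bind cAMP through a domain in the C-terminal tail. HCN2 is widespread in the brain and responds to cAMP, HCN3 responds little to cAMP, and HCN4 opens slowly, is strongly driven by cAMP and is known from cardiac pacemaker cells and from thalamic relay neurons. Pex5l encodes TRIP8b, a brain auxiliary subunit that binds the channel tail, sets how much channel reaches the surface and the distal dendrites, and lowers the response to cAMP. Changed HCN currents are well known in hippocampal neurons after seizures.

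The libraries held 59659977 to 84354243 counts. Levels are given as CPM, counts scaled by TMM-normalized library size. Over all genes, counting error was small beside the spread between mice. In sham-WT, Hcn3 (266 to 334 counts) and Hcn4 (141 to 203 counts) varied by about as much as counting error. Because whole hippocampus was sequenced, fewer cells of a type and less RNA per cell cannot be told apart. Lin28a itself was near the limit of detection, with 0 counts in 12 libraries and 3 counts in the remaining SE-WT library, so it could not check the genotype labels. The genes of hippocampal granule and CA pyramidal cells had summed levels of 97.3 to 435 CPM and 160 to 602 CPM, with the CA pyramidal gene Iyd at 0 counts in 1 library. In 3 libraries genes of the thalamus or striatum stood apart. The 13 thalamic neuron genes summed to 2191 CPM in sham-cKO replicate 2 and to 1369 CPM in replicate 3 of SE-WT, against 168 to 301 CPM in the other 11 libraries, and the 9 striatal neuron genes summed to 1268 CPM in SE-WT replicate 2, against 52.5 to 106 CPM elsewhere. The thalamic genes Gbx2 and Shox2 had 0 counts in 7 and 4 of the 13 libraries. Choroid plexus genes varied more widely, from 21.8 to 4538 CPM summed over 8 genes, and were highest in replicate 3 of both sham groups. Main results of the 4 genes that rest on the 3 libraries high in thalamic or striatal genes are given with and without them. These are the 3 libraries meant below as standing apart. Some fits below take the thalamic and striatal levels (median log2 difference from the sham mean) as covariates. The striatal level was 4.23 in SE-WT replicate 2 and at most 0.451 elsewhere. The thalamic level was 3.56 in sham-cKO replicate 2, 2.79 in SE-WT replicate 3 and at most -0.017 elsewhere. These fits thus come close to setting those libraries aside, and in WT rest mostly on SE-WT replicate 1.

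Hcn2 lies on chromosome 10 of GRCm38 (mm10) from 79716634 to 79736108 on the plus strand, and Hcn4 on chromosome 9 from 58823412 to 58863175 on the plus strand. Hcn3 and Pex5l lie on the minus strand of chromosome 3, from 89146074 to 89160196 and from 32949408 to 33143247. Of the 4 genes, Hcn2 and Hcn4 matched the RefSeq promoter table, and both promoters are shown since these genes also had their highest levels in the same 2 libraries. Each stretch is the 250 bases before the RefSeq start in GRCm38.p6, at chr10:79716384-79716633 and chr9:58822699-58822948, plus strand, with each GC box (GGGCGG on either strand) in capitals.
Hcn2: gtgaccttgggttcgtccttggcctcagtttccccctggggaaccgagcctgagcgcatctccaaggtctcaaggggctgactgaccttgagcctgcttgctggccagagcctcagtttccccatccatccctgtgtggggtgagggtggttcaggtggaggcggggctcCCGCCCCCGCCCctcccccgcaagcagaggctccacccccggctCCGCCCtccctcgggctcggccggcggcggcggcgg
Hcn4: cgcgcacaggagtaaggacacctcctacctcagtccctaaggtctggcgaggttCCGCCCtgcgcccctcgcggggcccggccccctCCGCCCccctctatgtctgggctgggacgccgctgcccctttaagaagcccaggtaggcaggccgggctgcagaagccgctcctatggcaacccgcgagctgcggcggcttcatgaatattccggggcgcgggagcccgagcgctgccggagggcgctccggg
Both stretches were rich in G and C. The Hcn2 stretch was 70.4% GC with 16 CpG sites and 3 GC boxes, and the Hcn4 stretch was 71.2% GC with 25 CpG sites and 2 GC boxes, against medians of 52.4% GC and 6 CpG sites over 32851 mouse promoters of this length. A GC box was present in 32.7% of those promoters. Neither stretch held a TATA box (TATAAA, in 12.4% of promoters) or a full cAMP response element (TGACGTCA, in 1.55%), searched on both strands. These matches describe letters in the window and not sites in use.

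Per length, in deposited TPM, Pex5l was the most abundant of the 4 transcripts and Hcn2 the most abundant of the 3 channel genes described here. Pex5l stood at 29.0 to 168 TPM over the 13 libraries, Hcn2 at 11.1 to 48.5 TPM, Hcn3 at 1.37 to 3.32 TPM and Hcn4 at 0.427 to 6.19 TPM. The order Pex5l, Hcn2, Hcn3, Hcn4 held within 11 of 13 libraries. In replicate 2 of sham-cKO and replicate 3 of SE-WT, Hcn4 was above Hcn3, at 6.19 against 1.96 TPM and 4.66 against 3.01 TPM. Across libraries the ranges of Hcn2 and Hcn3 were apart, while those of Pex5l and Hcn2 overlapped and those of Hcn3 and Hcn4 overlapped. In sham-WT the mean levels were 118 ± 25.0 TPM for Pex5l, 20.4 ± 3.79 TPM for Hcn2, 1.62 ± 0.242 TPM for Hcn3 and 0.440 ± 0.0124 TPM for Hcn4 (SD, n = 3). All 4 ranges were apart within that group.

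**Figure D1:**
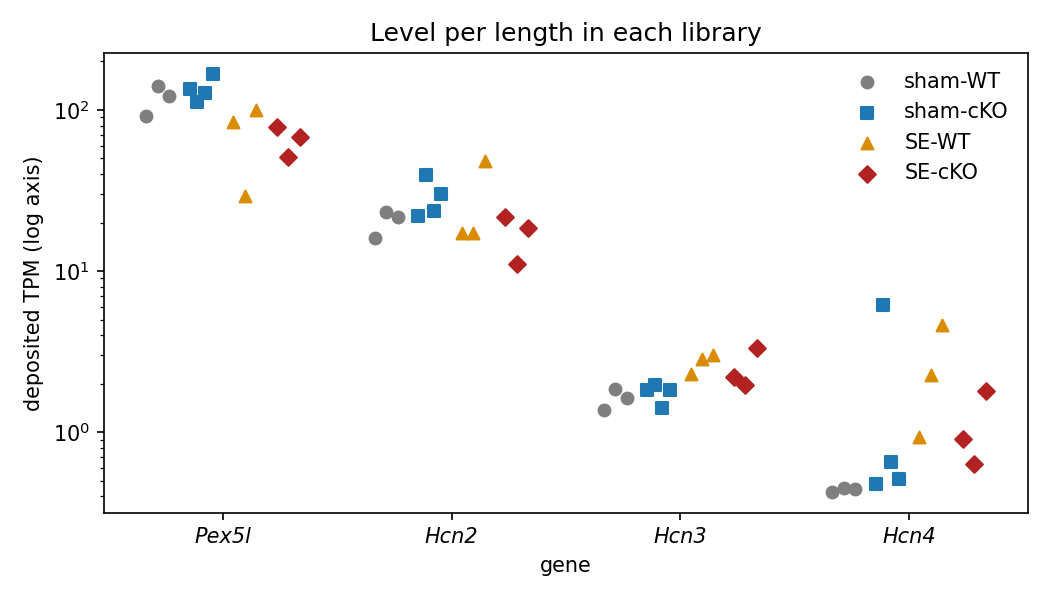
Deposited TPM (log axis) of Pex5l, Hcn2, Hcn3 and Hcn4, with each point a library and color and shape giving its group. Hcn4 lies below Hcn3 except in replicate 2 of sham-cKO (6.19 TPM) and replicate 3 of SE-WT (4.66 TPM).

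SE was compared with sham within each genotype to ask how the channel genes respond to acute seizures. Pex5l was lower and Hcn3 was higher in every SE library than in every sham library of the same genotype. Hcn4 was higher after SE in WT mice, and Hcn2 did not separate by treatment. Fits of the pair of groups called 1 of the 4 genes in each genotype, Hcn4 in WT (higher) and Pex5l in cKO (lower). Over all genes tested, 5.40% were called in WT and 22.7% in cKO. The WT share rests on 1124 genes, and leaving out 1 library gave 287 (sham-WT replicate 2) to 1279 genes. Groups did not overlap for 3 of the 4 genes in WT and 2 of the 4 in cKO, against 28.7% and 34.2% of all genes tested.

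Pex5l, the auxiliary subunit, was at 322, 415 and 392 CPM in sham-WT replicates 1 to 3 and at 272, 122 and 271 CPM in SE-WT replicates 1 to 3. It was at 381, 358, 377 and 457 CPM in sham-cKO and at 246, 190 and 189 CPM in SE-cKO. All SE libraries lay below all sham libraries, and SE-WT replicate 2, the library high in striatal genes, was the lowest. The group means were 376 ± 48.4 (SD, n = 3) and 222 ± 86.3 CPM (SD, n = 3) in WT and 393 ± 43.8 (SD, n = 4) and 208 ± 32.3 CPM (SD, n = 3) in cKO. In cKO mice Pex5l fell by 0.94 on the log2 scale (standard error 0.14), to 0.520 of the sham level (edgeR quasi-likelihood test, adjusted p = 0.00217). This call held in all 17 alternatives, at -1.05 to -0.85. In WT mice the difference was of like size, -0.79 (standard error 0.30), and did not pass (edgeR adjusted p = 0.191; DESeq2 0.0757). It was -0.50 without SE-WT replicate 2 (edgeR adjusted p = 0.107), -0.49 without the 3 libraries that stood apart (0.301) and -0.22 with thalamic and striatal levels as covariates (0.699). Markers of hippocampal neurons were lower in most of the same libraries. The granule cell level is the median over 8 genes of the log2 difference from the sham mean. It was -3.00 to -1.10 in SE-WT and -1.24 to -0.42 in SE-cKO, against -0.55 to 0.26 in sham. That of 9 CA pyramidal genes was -2.56 to -0.27 and -1.85 to -1.18, against -0.42 to 0.39 in sham. Their part in the Pex5l result was not tested.

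Hcn3 encodes the channel subunit with little cAMP response. It was at 4.12, 4.49 and 4.49 CPM in sham-WT and at 5.95, 8.41 and 6.64 CPM in SE-WT. In cKO mice it was at 4.13, 5.22, 3.30 and 4.52 CPM in sham and at 5.84, 5.27 and 7.74 CPM after SE. The groups did not overlap in either genotype, though the lowest SE-cKO library lay only just above the highest sham-cKO library. Hcn3 did not pass in either genotype, at 0.66 in WT (standard error 0.21, edgeR adjusted p = 0.135) and 0.52 in cKO (standard error 0.23, edgeR adjusted p = 0.146). The WT value was 0.28 with thalamic and striatal levels as covariates. DESeq2 called it in WT (adjusted p = 0.0378), where it called 9.13% of all genes higher, and not in cKO (0.120), where it called 29.5%. Averaged over genotypes in a fit of all 13 libraries, a comparison added after the values were seen, Hcn3 was 1.53-fold higher after SE (log2 0.62, standard error 0.15, edgeR adjusted p = 0.00957) and Pex5l fell by 0.84 (standard error 0.17, edgeR adjusted p = 0.00310). In that comparison 24.9% of all genes were called. The Pex5l call held in all 22 alternatives. The Hcn3 call held in 20 of 22, and was lost with thalamic and striatal levels as covariates (0.47, adjusted p = 0.0515) and without the 3 libraries that stood apart (0.52, adjusted p = 0.0847). Hcn3 overlaps Pklr, on the opposite strand, by 711 bases in GENCODE, all within Hcn3 exons, and by 41 bases in RefSeq bounds. Pklr had 0 counts in 11 libraries, 10 in replicate 3 of sham-WT and 5 in replicate 3 of SE-WT. Of the Pex5l exon bases, 1181 lie within the antisense gene 4930419G24Rik, which had 0 to 27 counts. A further antisense gene, Gm37459, spans 3160 and was not analysed here. Both spans include introns. The strand setting of the counting is not given in the sources used here, so reads from these overlaps cannot be assigned with certainty.

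**Figure D2:**
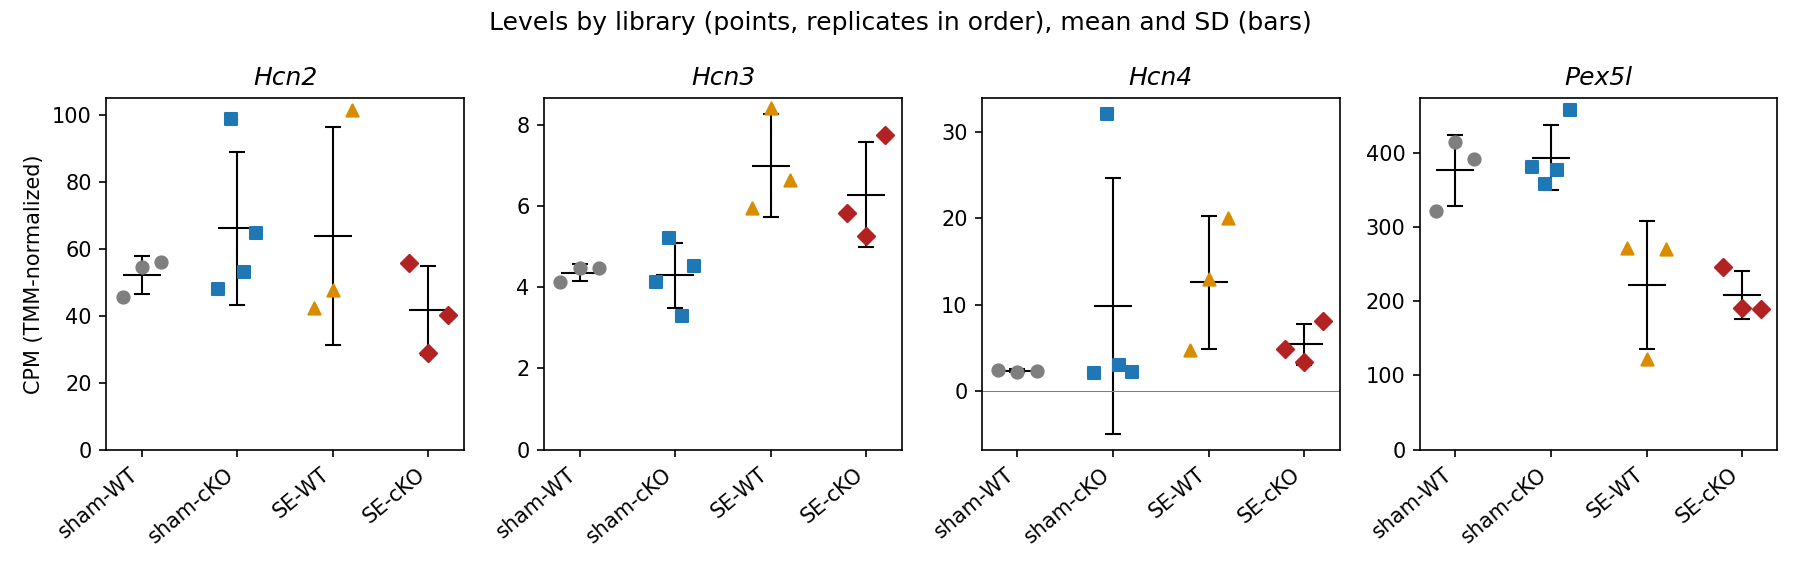
CPM of each gene in each library (points) with group means and SD (bars), 1 panel per gene and a linear axis. Pex5l was at 122 to 272 CPM in the 6 SE libraries and at 322 to 457 CPM in the 7 sham libraries, and the high Hcn4 points are replicate 2 of sham-cKO and replicates 2 and 3 of SE-WT.

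Hcn4 encodes the slow, strongly cAMP-driven subunit. In sham-WT it was at 2.51, 2.18 and 2.38 CPM and in SE-WT at 4.75, 12.98 and 20.1 CPM, so the groups did not overlap and the SE libraries were spread widely. In WT mice Hcn4 rose 5.26-fold after SE (log2 2.39, standard error 0.49, edgeR adjusted p = 0.0370; DESeq2 1.21e-05). The call held in 4 of 16 alternatives, and was lost on leaving out any of the 3 sham-WT libraries (edgeR adjusted p = 0.123 to 0.175), SE-WT replicate 2 (0.0542) or SE-WT replicate 3 (0.0561), with values of 1.91 to 2.47. It held without SE-WT replicate 1 (2.79, edgeR adjusted p = 0.00667). The value was 0.36 when all 4 groups were fitted with thalamic and striatal levels as covariates (edgeR adjusted p = 0.667). In WT that fit rests mostly on SE-WT replicate 1. Without the 3 libraries that stood apart the value was 0.99. This leaves SE-WT replicate 1 alone in its group and assumes that it varies like the other groups.

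In sham-cKO, Hcn4 was at 2.16, 32.1, 3.06 and 2.28 CPM, and replicate 2 was more than 10 times any other sham library. In SE-cKO it was at 4.83, 3.43 and 8.07 CPM, above 3 of the 4 sham-cKO libraries. With all libraries the difference was -0.89 (standard error 0.98, edgeR adjusted p = 0.584). Its direction turned without sham-cKO replicate 2, to 1.08 (edgeR adjusted p = 0.0694). It was 0.92 with thalamic and striatal levels as covariates (edgeR adjusted p = 0.0149) and 1.09 without the 3 libraries that stood apart (0.0340). Averaged over genotypes, Hcn4 was at 0.78 (edgeR adjusted p = 0.419), and at 1.77 without sham-cKO replicate 2 (0.00172), 1.04 without all 3 (0.0199) and 0.64 with the covariates (0.0275).

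Hcn2, the widespread cAMP-sensitive subunit, was at 45.7, 54.6 and 56.2 CPM in sham-WT and at 42.4, 47.7 and 101 CPM in SE-WT. It was at 48.1, 98.8, 53.2 and 64.6 CPM in sham-cKO and at 55.7, 28.9 and 40.1 CPM in SE-cKO. The groups overlapped in both genotypes, and the highest values were 101 CPM in replicate 3 of SE-WT and 98.8 CPM in replicate 2 of sham-cKO. Neither difference passed, at 0.26 in WT (standard error 0.32, edgeR adjusted p = 0.706) and -0.70 in cKO (standard error 0.30, edgeR adjusted p = 0.131). Without SE-WT replicate 3 the WT value was -0.22 (edgeR adjusted p = 0.398). Leaving out each of the 7 cKO libraries in turn gave -0.94 to -0.46 in cKO, and none of these fits passed. Over all 17 alternatives the cKO value was -0.94 to -0.39, and only 1, given next, passed. With the level of 9 oligodendrocyte genes as a covariate, an alternative added after the values were seen, Hcn2 fell by 0.77 in cKO (edgeR adjusted p = 0.00519) and by 0.42 averaged over genotypes (0.0263), and stood at -0.058 in WT (0.904).

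The libraries with the most Hcn4 and Hcn2 were those with the most RNA of thalamic genes. The thalamic level is the median over 13 genes of the log2 difference from the sham mean. It was 3.56 in replicate 2 of sham-cKO and 2.79 in replicate 3 of SE-WT, and -0.74 to -0.017 in the other 11 libraries. The level of 7 medial habenula genes was 2.65 and 2.91 in those 2 libraries and at most 0.62 elsewhere. Their summed CPM, mostly Nwd2, was not raised there (71.4 and 64.3 CPM, against 19.7 to 77.3 CPM elsewhere). Chrnb4, Pou4f1 and Gng8, with low counts, were highest there. So were Gpr151 (15.2 and 8.59 CPM, against 0.320 to 6.13 CPM elsewhere) and Chrna3 (2.94 and 4.64 CPM, against 0 to 0.786 CPM). Tac2 and Nwd2 were highest in other libraries. The thalamic transcription factor Tcf7l2 was at 72.6 and 62.6 CPM there and at 1.38 to 6.73 CPM in the rest. Oligodendrocyte genes were also highest there, at 0.52 and 1.04 on the same log2 scale, against -0.41 to 0.45. SE-WT replicate 2, with 12.98 CPM of Hcn4, had a thalamic level of -0.66 and a striatal level of 4.23. Among the other 10 libraries the highest Hcn4 level, 8.07 CPM in SE-cKO replicate 3, went with the highest thalamic level, -0.017. The remaining SE libraries of these did not order in that way against sham. Hcn4 was at 4.75 CPM in SE-WT replicate 1 (thalamic level -0.588), and at 4.83 and 3.43 CPM in SE-cKO replicates 1 and 2 (-0.508 and -0.741). The sham libraries among them had 2.16 to 3.06 CPM at thalamic levels of -0.724 to -0.410. Pex5l did not peak in these libraries. Hcn3 was highest of all in SE-WT replicate 2 (8.41 CPM), and sham-cKO replicate 2 (5.22 CPM) was its highest sham library. The part of other regions in the Hcn4 and Hcn2 differences was not tested beyond the covariate fits and the fits without these libraries.

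**Figure D3:**
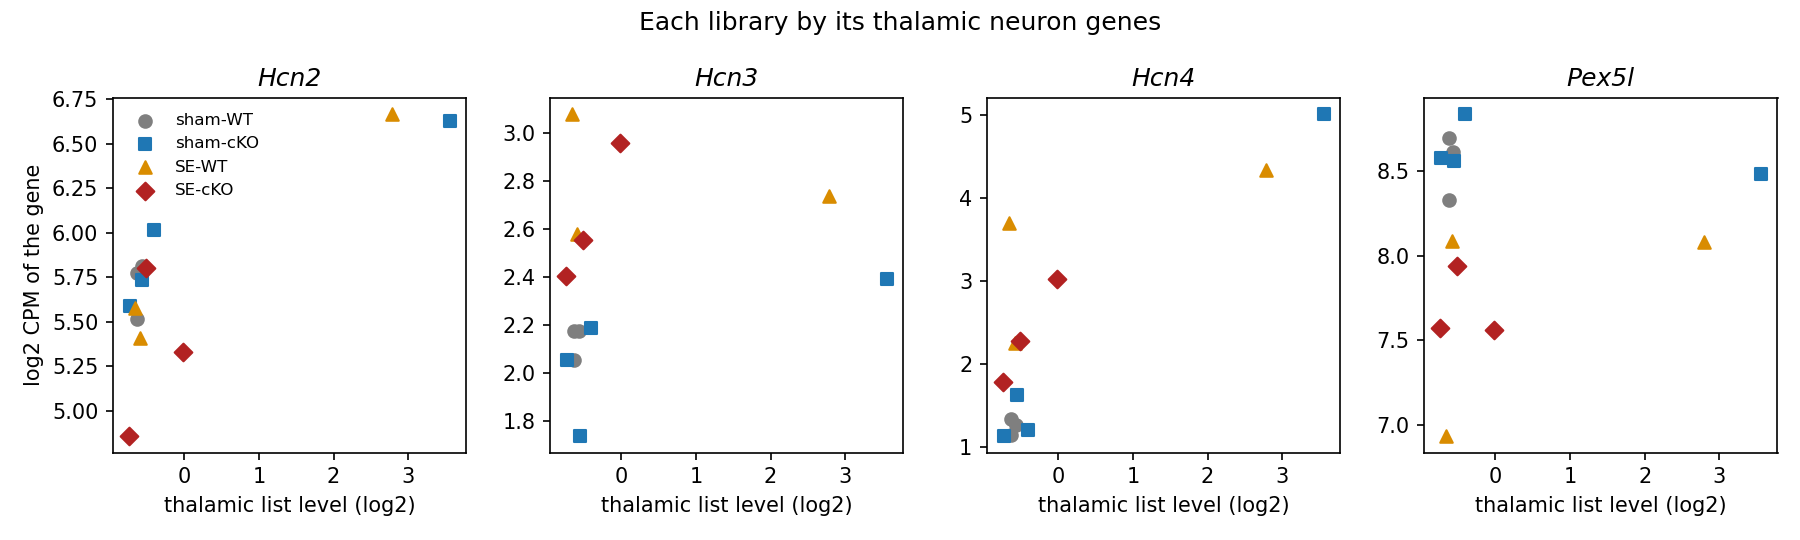
Log2 CPM of each gene against the thalamic level of the same library (median over 13 genes of the log2 difference from the sham mean), with color and shape giving the group. Replicate 2 of sham-cKO (3.56) and replicate 3 of SE-WT (2.79) lie far to the right and are the highest points for Hcn2 and Hcn4, and not for Hcn3 or Pex5l.

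Genotypes were compared within each treatment, and the interaction asked whether the SE effect differed between them. None of the 4 genes was called by edgeR in any of these comparisons, in which 0%, 0% and 0.159% of all genes were called after SE, in sham and for the interaction. None was called by DESeq2 either, which gave no adjusted p for Hcn4 in sham. At an unadjusted p under 0.05 there were 0, 0 and 1, Hcn4 in the interaction, against 9.68%, 5.54% and 12.5% of all genes. The groups overlapped for all 4 genes in both genotype comparisons, in which 15.0% and 7.68% of all genes did not overlap. After SE, cKO minus WT was -0.12 for Pex5l (standard error 0.30, edgeR adjusted p = 0.951), -0.19 for Hcn3 (0.27, 0.903), -0.65 for Hcn2 (0.38, 0.655) and -1.24 for Hcn4 (0.54, 0.524). In sham it was 0.076 for Pex5l (standard error 0.12, edgeR adjusted p = 0.954), -0.011 for Hcn3 (0.19, 0.997), 0.36 for Hcn2 (0.24, 0.880) and 2.09 for Hcn4 (1.13, 0.868). Without SE-WT replicate 3 the values after SE were -0.17 for Hcn2 and -0.76 for Hcn4, and without sham-cKO replicate 2 those in sham were 0.096 for Hcn2 and 0.097 for Hcn4. Leaving out other libraries took the values after SE as far as -0.91 and -1.66.

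The interaction, cKO minus WT, was -0.15 for Pex5l (standard error 0.34, edgeR adjusted p = 0.906), -0.13 for Hcn3 (0.30, 0.909), -0.96 for Hcn2 (0.48, 0.430) and -3.28 for Hcn4 (1.30, 0.321). The Hcn2 interaction was -0.49 without SE-WT replicate 3, and the Hcn4 interaction was -1.30 without sham-cKO replicate 2. Without the 3 libraries that stood apart the Hcn4 interaction was 0.094 (edgeR adjusted p = 1.00). These tests do not show that the genes acted alike in the genotypes, since the standard errors leave room for differences as large as the SE effects of Hcn3 and Hcn2.

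**Figure D4:**
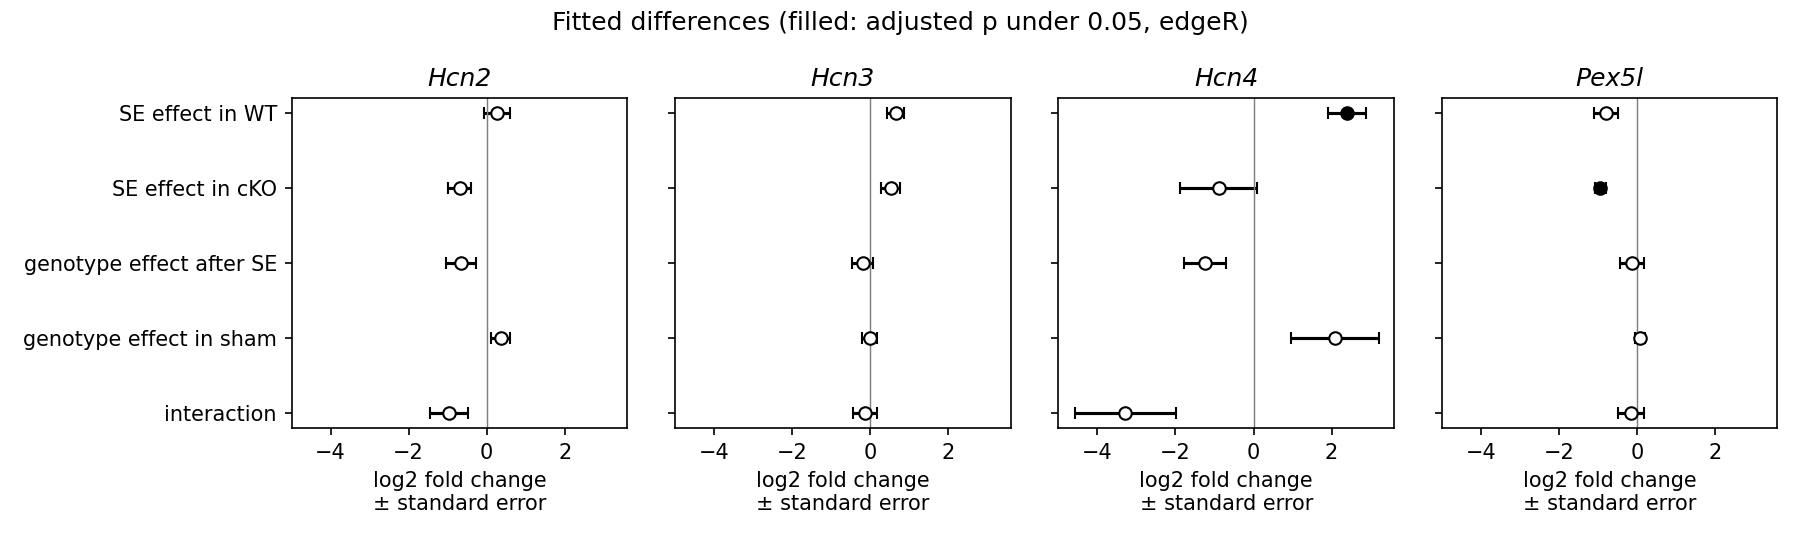
Fitted log2 fold changes (points) with standard errors (bars) of each gene in the comparisons SE against sham within WT and cKO, cKO against WT after SE and in sham, and their interaction. Filled points have an edgeR adjusted p under 0.05, which are Hcn4 after SE in WT (2.39) and Pex5l after SE in cKO (-0.94).

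Genes that act on HCN channels or on their ligand cAMP gave more calls in cKO than in WT, as did all genes (22.7% against 5.40%). Of 14 HCN partners and regulators, none was called after SE in WT by edgeR and 4 rose in cKO. In WT 4 of the 14 had an unadjusted p under 0.05, against 20.8% of all genes, and DESeq2 called 3 higher, against 9.13% of all genes. The genes that rose in cKO were Cav1, a caveolar membrane protein, at 15.6 ± 1.71 (SD, n = 4) in sham-cKO and 121 ± 19.2 CPM (SD, n = 3) in SE-cKO (log2 2.93, edgeR adjusted p = 1.35e-05), the actin crosslinker Flna (2.16), the repressor Rest, which acts on neuronal genes (1.27), and Lrmp, a membrane protein of the endoplasmic reticulum that modulates HCN4 (1.86), the last of these with the highest edgeR adjusted p, 0.0181. In WT their values were 1.07, 0.77, 0.68 and 1.48, with edgeR adjusted p of 0.108, 0.102, 0.151 and 0.0543. Kcne2, an accessory subunit of potassium channels that choroid plexus also expresses, was at 0 to 27.6 CPM and followed the choroid plexus genes, with its 2 highest values in the 2 libraries highest in them. The median of the list was 0.16 in WT and -0.084 in cKO, against 0.015 and -0.00059 over all genes tested.

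Adenylyl cyclases, which make cAMP, moved in both directions. Adcy7, a form common in immune cells, rose in both genotypes, from 5.53 ± 0.573 (SD, n = 3) to 22.1 ± 3.87 CPM (SD, n = 3) in WT (log2 1.97, edgeR adjusted p = 0.00271) and from 6.30 ± 2.09 (SD, n = 4) to 30.3 ± 10.4 CPM (SD, n = 3) in cKO (2.24, 0.00134). It was the only cyclase of 10 called in WT by edgeR. In cKO 2 of 10 rose and 4 fell, among them the neuronal forms Adcy1 (-1.43, edgeR adjusted p = 0.00356) and Adcy8 (-1.26, 0.0201) and the widespread Adcy9 (-1.09, 0.000807). Adcy1 and Adcy9 in WT were at -1.08 and -0.80 and did not pass (edgeR adjusted p = 0.259 and 0.0584). The median of the 10 was -0.16 in WT and -0.36 in cKO. Microglial genes were higher in the same SE libraries, with a level over 8 genes of 1.76 to 2.80 against -0.13 to 0.12 in sham, and their part in the rise of Adcy7 was not tested. Neuronal genes were lower in SE-cKO, with a level over 10 general neuron genes of -0.71 to -0.17 against -0.095 to 0.088 in sham, beside the CA pyramidal levels given above. Their part in the falls of Adcy1 and Adcy8 was not tested.

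Phosphodiesterases that break down cAMP showed 1 rise of 15 in WT, and 1 rise and 2 falls of 15 in cKO. The rise was Pde3b in both, from 20.1 ± 1.25 (SD, n = 3) to 44.4 ± 4.68 CPM (SD, n = 3) in WT (log2 1.12, edgeR adjusted p = 0.00509) and by 1.35 in cKO (0.000614). Pde10a, abundant in striatal neurons, fell by 0.99 in cKO (edgeR adjusted p = 0.000608), and was at 58.2 to 797 CPM in SE-WT, where replicate 2 is high in striatal genes (2.01, edgeR adjusted p = 0.300). Pde4d fell by 0.74 in cKO (edgeR adjusted p = 0.0479), a call that held in 5 of 17 alternatives. Of the CNG channels, the cyclic nucleotide-gated relatives of HCN channels, 4 of 6 were tested. None was called in WT (0 at an unadjusted p under 0.05; 0 by DESeq2) and Cnga4 fell by 1.41 in cKO (edgeR adjusted p = 0.0110).

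No gene of these 4 lists was called by edgeR between genotypes or in the interaction. At an unadjusted p under 0.05 there were 3 of 14 partners, 1 of 10 cyclases, 4 of 15 phosphodiesterases and 1 of 4 CNG channels after SE, 1, 1, 2 and 0 in sham, and 2, 2, 5 and 1 in the interaction. The shares of all genes at that threshold were 9.68%, 5.54% and 12.5%. DESeq2 called Cav1 and Flna higher in SE-cKO than in SE-WT (adjusted p = 1.90e-06 and 0.00236), where edgeR gave 1.97 and 1.21 (adjusted p = 0.236 and 0.290), and both in the interaction (0.000217 and 0.00341). It also called Pde7b (0.0264) and Cnga4 (0.0194) in the interaction. Pde7b was highest in the 3 libraries that stood apart, at 141 CPM in SE-WT replicate 2, 40.4 CPM in sham-cKO replicate 2 and 29.1 CPM in SE-WT replicate 3. Elsewhere it was at 7.47 to 17.0 CPM, and its interaction without those libraries is not given. DESeq2 called 3.15% of all genes after SE, 0.0821% in sham and 3.97% in the interaction.

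**Figure D5:**
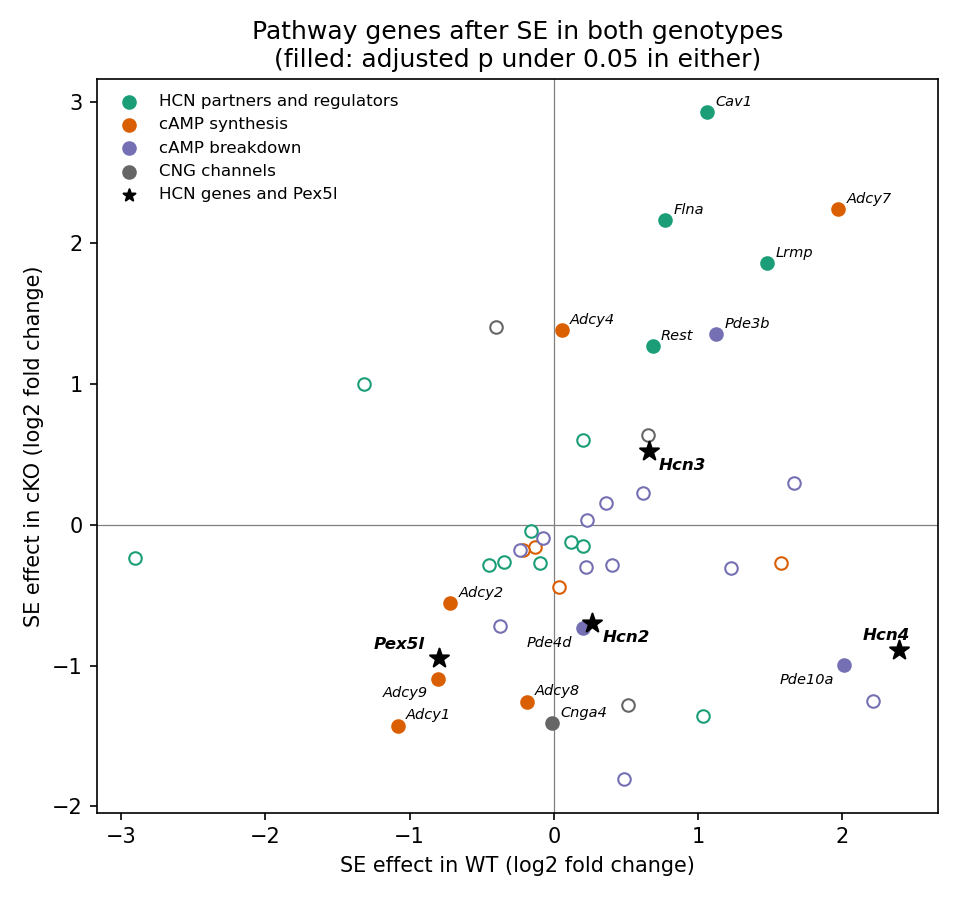
Log2 fold change after SE in cKO (vertical axis) against that in WT (horizontal axis) for the tested genes of the 4 lists (circles, filled where edgeR called the gene in either genotype) and for the HCN genes and Pex5l (stars, not coded for calls). Cav1, Flna, Lrmp, Rest, Adcy7 and Pde3b lie above 0 on both axes. Hcn4 and Pde10a are above 0 in WT (2.39 and 2.01) and below 0 in cKO (-0.89 and -0.99), and single libraries set these opposite signs. Pde10a was at 797 CPM in SE-WT replicate 2, and at 58.2 and 66.7 CPM in replicates 1 and 3, below the 70.9 to 81.7 CPM of sham-WT. Hcn4 in cKO was 1.08 without sham-cKO replicate 2.

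The genes whose profiles over the 13 libraries lay closest to each member were found by the root-mean-square difference of centred log2 CPM. For Pex5l, whose own profile varied by 0.533 about its mean, these were Nck2 (0.136), Nell2 (0.138), Rapgefl1 (0.154) and Sort1 (0.168). For Hcn2 (0.472) they were Shc3 (0.199), Fads6 (0.204), Scd1 (0.205) and Spock2 (0.209). Hcn3, whose own profile varied by 0.369, lay closest to Lrrc42 (0.174), Ino80c (0.176), L3hypdh (0.177) and Rhoq (0.184). Hcn4 varied most, by 1.26, and its nearest genes were less close, with Zfhx3 at 0.392, Amotl1 at 0.471, Gpr153 at 0.527 and Fhdc1 at 0.550. The points share libraries, depth and the composition described above.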

How the data were processed

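Hippocampal total RNA of 13 mice was sequenced with TruSeq stranded libraries. Per the submitters' processing notes, bcl2fastq 2.20.0, Trimmomatic, HISAT2 2.1.0, StringTie 2.1.3b and mm10 were used. The strand setting is not given in the sources used here. The authors deposited whole-number read counts, FPKM and TPM per gene. Deposited TPM served for levels between genes, and FPKM only as a check of their order. Totals were 59659977 to 84354243 counts per library, and over all genes replicates differed by far more than counting error.

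Counts were filtered (edgeR filterByExpr, minimum count 10, total at least 15) and scaled by TMM. Tests were edgeR 4.0.16 quasi-likelihood fits with robust settings, run in R 4.3.3. Pairs of groups were fitted alone, and the interaction and the SE effect averaged over genotypes used all 13 libraries. Adjusted p values are Benjamini-Hochberg over all genes tested, with a threshold of 0.05. Log2 CPM used a prior count of 2. Alternatives were DESeq2 1.42.0, limma 3.58.1 (voom with quality weights), RLE size factors, no low-count filter, 1 fit of all groups, a replicate block, title style, Xist level, thalamic and striatal or oligodendrocyte levels as covariates, and libraries left out. Title style is a term for replicate 3 of SE-WT and of SE-cKO, whose sample titles are written unlike those of the other libraries. No sham library has such a title. The term was used for the genotypes after SE and for the interaction. Both libraries held the highest Hcn4 of their groups (20.1 and 8.07 CPM), and whether the titles mark a batch is not labelled. The methods were tested on simulated data. Library sex is not labelled.

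Members and lists were chosen with earlier results of these data known. The members are named in every comparison, with up to 4 genes of each pathway list with the smallest p, and the 4 genes nearest to each member in profile, without predicted genes and small RNAs. Tcf7l2 and the other region markers were named after their values were seen. Positions follow GENCODE M21 (GRCm38) by gene ID, and promoters RefSeq GRCm38.p6, where 2 of the 4 members matched. Other genes of the HCN family are not reported here.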

Additional observations from a re-analysis of the deposited data

Results flagged for a closer look

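Only sham-cKO has 4 libraries and could be examined for a library far from the rest, which chance flags in about 1 group in 20. The 4 genes and the levels of all gene lists were each examined. That rate would apply to an item picked without sight of its values. Members and lists were chosen with earlier results known, and the region markers were named after their values were seen. No chance rate can therefore be given for the flags below. Hcn4 in sham-cKO replicate 2, at 32.1 CPM, lay 0.97 of the group's range from the nearest other library. The level of the thalamic neuron genes in the same library, 3.56 on the log2 scale, lay 0.927 of the range from the nearest.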

How the results depend on the processing

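Under the alternatives, 396 values of the 4 genes kept their direction and side of the threshold, 28 changed direction, 14 no longer passed and 8 came to pass. Of those that changed direction, 2 values of Hcn4 in cKO also passed (0.92 and 1.09). Leaving out each library in turn gave ranges of -0.22 to 0.49 for Hcn2 and 1.91 to 2.79 for Hcn4 after SE in WT, -1.26 to 1.08 for Hcn4 after SE in cKO, and 0.51 to 1.77 for Hcn4 averaged over genotypes. Values near 0 changed sign, from -0.42 to 0.037 for Pex5l between genotypes after SE, -0.025 to 0.15 for Pex5l and -0.12 to 0.098 for Hcn3 in sham, and -0.48 to 0.019 for Pex5l in the interaction. With thalamic and striatal covariates, Hcn2 in WT turned to -0.13, Hcn4 in WT was 0.36, Hcn3 in cKO passed (0.65), Hcn4 in cKO turned to 0.92, Hcn3 and Hcn4 turned between genotypes after SE (0.20 and 0.56) and in the interaction (0.37 and 0.55), and the averaged values were 0.47 for Hcn3 and 0.64 for Hcn4. Without the 3 libraries high in those genes the corresponding values were -0.32, 0.99, 1.09 for Hcn4 in cKO, 0.050 and 0.17, 0.19 and 0.094, and 0.52 and 1.04. With the oligodendrocyte covariate, Hcn2 was -0.058 in WT, -0.77 in cKO and -0.42 averaged, and Hcn4 in WT was 1.73. With voom, Hcn2 in WT was -0.071, Hcn4 in WT 1.73 and Hcn4 in cKO 0.44. With Xist level, Hcn4 in WT was 2.21, Pex5l in WT passed (-0.94), and Pex5l turned after SE (0.013), in sham (-0.077) and in the interaction (0.090). In 1 fit of all groups Hcn4 in WT was 2.42. DESeq2 called Hcn3 in WT (0.66) and gave no adjusted p for Hcn4 in cKO or in sham. It called 3 of 14 partners and 3 of 10 cyclases in WT and 5 of 15 phosphodiesterases in cKO, where edgeR called 0, 1 and 3. Over all genes DESeq2 called 2692 of 20746 in WT and 29.5% in cKO. Among pathway calls in cKO, Lrmp, Adcy8 and Pde10a held in 14 of 17 alternatives each and Cnga4 in 16 of 17. The cause of these changes was not tested beyond their construction.

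Same-numbered samples did not deviate together (correlations -0.0738 to 0.249, with no comparison over 0.1 in every pair), so the numbers were not used as pairs. The replicate block moved Hcn4 in WT below the threshold (2.18, edgeR adjusted p = 0.0808) and changed no other call of the 4 genes. It moved all calls in WT from 1124 to 728 and in cKO from 4838 to 2458.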
